A study of Mus musculus with 2 samples.

Results

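Voltage-gated calcium and sodium channels were followed through single-nucleus RNA sequencing of the mouse hippocampus as 40 genes, taken by symbol from the 32285 genes of the count matrices. The symbols were those of the calcium channel pore subunits (*Cacna1a* to *Cacna1s*), the α2δ subunits (*Cacna2d1* to *Cacna2d4*), the β subunits (*Cacnb1* to *Cacnb4*), the γ subunits (*Cacng1* to *Cacng8*), and the sodium channel α (such as *Scn1a*) and β subunits (such as *Scn2b*). Of the 40 genes, 33 reached 100 unique molecular identifiers (UMIs) over both libraries in at least 1 class of nuclei.

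The study compared 2 groups of mice, each present as 1 library of 10x Genomics 3′ counts of nuclear RNA. PS19 mice carry the human tau P301S transgene on one allele (PS19 +/-), driven by the prion protein promoter, with normal *Zbp1* (Zbp1-WT), and PZKO mice carry the same transgene and lack *Zbp1* (Zbp1-KO), which encodes a sensor of Z-form nucleic acids. Both libraries come from hippocampi of males aged 9 months, in pools of 5 mice per group, so both groups are tauopathy mice and the transgene is common to both. Because each genotype is 1 pooled library, no test between genotypes was possible, and the intervals given below cover counting error only.

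A voltage-gated channel opens when the membrane is depolarized. Sodium channels (Nav) start and carry the action potential, and their α subunit forms the pore while the β subunits shape gating and surface placement. Calcium channels (Cav) turn the depolarization into calcium entry, which drives transmitter release through P/Q- and N-type channels, signalling to the nucleus through L-type channels, and burst firing near rest through T-type channels. The α2δ and cytoplasmic β subunits bring high-voltage-activated Cav pores to the membrane, and several γ subunits serve instead as auxiliary proteins of AMPA receptors (TARPs).

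After filtering, 9590 of 11469 PS19 nuclei and 9307 of 10920 PZKO nuclei were kept, with 100571195 and 152268056 UMIs. PZKO nuclei were deeper, with a median of 8342.5 UMIs per nucleus before filtering against 5642, and the libraries shared 47 cell barcodes. *Zbp1* itself had 92 UMIs in PS19 and 38 in PZKO, too few for a level in single classes. Nuclei were clustered without the channel genes, and 24 classes with at least 25 nuclei in each library were used: 9 excitatory and 3 inhibitory neuron classes, Cajal-Retzius-like cells, 9 non-neuronal classes and 2 clusters without a name. Every one of the 114 markers of the 16 classes named by markers exceeded the median of the other classes in both libraries, and 93 were highest in their own class. The classes were named from these same markers, so this is no test of the names. The other neuron classes are called by their 2 leading genes. The deep-layer-like class is named after cortical markers such as *Foxp2* (458 and 454 CPM), although the tissue is labelled hippocampus. Only 1 of its 6 markers was highest there in both libraries, and *Foxp2* reached 870 and 800 CPM in another class. Dentate granule-like nuclei numbered 1009 in PS19 and 514 in PZKO.

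A level is the UMIs of a gene summed over the nuclei of a class, per 1000000 UMIs of that class and library (CPM). The 40 channel genes together held 8186 CPM in PS19 and 8545 CPM in PZKO in dentate granule-like nuclei, 8668 and 9006 CPM in CA3-like nuclei and 6022 and 6301 CPM in interneuron-like nuclei marked by *Lhx6* and parvalbumin. Their sum was lower in glia, at 1024 and 1190.3 CPM in oligodendrocyte-like nuclei and 1096 and 1114 CPM in astrocyte-like nuclei, but it reached 3886 and 3894 CPM in oligodendrocyte precursor (OPC)-like nuclei and 4169.8 and 5312 CPM in pericyte- and mural-like nuclei. The class with the highest level was the same in both libraries for 18 of the 33 measured genes.

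**Figure D1:**
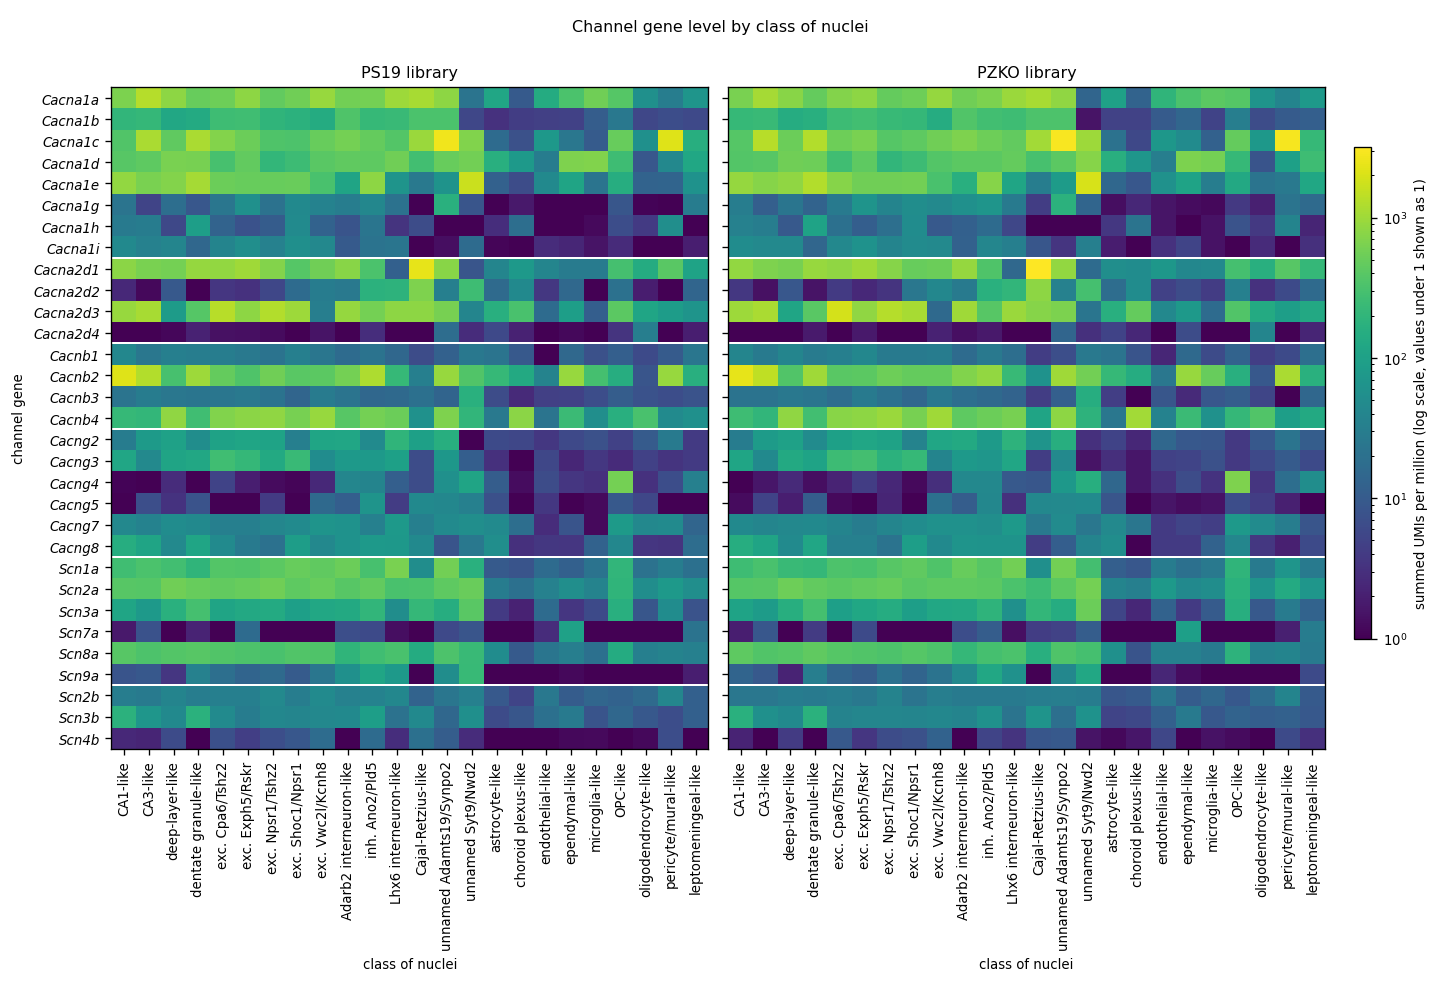
Level of 31 of the 33 measured channel genes (rows, grouped from top to bottom as Cav α1, α2δ, Cav β, γ, Nav α and Nav β) in 24 classes of nuclei (columns), as summed CPM on a log colour scale, with PS19 on the left and PZKO on the right. *Cacna1c* is bright in pericyte- and mural-like nuclei (2182 and 2892 CPM), *Cacna2d1* is bright in Cajal-Retzius-like nuclei (2362 and 3167 CPM) and dark in *Lhx6* interneuron-like nuclei (11.8 and 15.2 CPM), and *Cacng4* is bright in OPC-like nuclei (596 and 668 CPM).

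Levels outside neurons need a background, because RNA released from neurons can be captured with other nuclei. A list of 6 excitatory markers, among them *Slc17a7*, *Camk2a*, *Nrgn*, *Neurod2* and *Neurod6*, stood in microglia-like nuclei at 18.4% and 18.5% of its level in the pooled excitatory classes (PS19 first here and below), in oligodendrocyte-like nuclei at 16.8% and 16.2%, in endothelial-like nuclei at 19.4% and 21.7%, in leptomeningeal-like nuclei at 17.7% and 14.6% and in OPC-like nuclei at 8.63% and 7.52%. A channel gene at or under these shares is read as background. Single markers differed, with *Slc17a7* in microglia-like nuclei at 16.2% and 17.4% and the short, abundant *Nrgn* at 52.8% and 56.6%.

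Among the high-voltage-activated pores, *Cacna1a*, the P/Q-type pore of most central synapses, was highest in CA3-like nuclei, at 1298 CPM in PS19 and 1077 CPM in PZKO, and in Cajal-Retzius-like nuclei, at 1102 and 1112 CPM, which changed places between the libraries. *Lhx6* interneuron-like nuclei followed with 969 and 962 CPM, while dentate granule-like nuclei had 484 and 479 CPM. The gene (chromosome 8, 84388440 to 84640246) was also high in microglia-like nuclei, with 563 and 416 CPM, which is 77.3% and 57.9% of the pooled excitatory level against 18.4% and 18.5% for the background list. *Cacna1b*, the N-type pore, had its highest neuronal level in *Adarb2* interneuron-like nuclei, at 345 CPM in PS19 and 362 CPM in PZKO, and was low outside neurons, from 3.21 and 4.87 CPM in astrocyte-like to 25.6 and 31.99 CPM in OPC-like nuclei. Over the 9 excitatory classes *Cacna1b* ranged from 126 to 269.6 CPM in PS19 and from 147 to 282 CPM in PZKO.

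*Cacna1e*, the R-type pore, separated the excitatory classes from most inhibitory ones. Among the named classes it was highest in dentate granule-like nuclei. It stood at 1095 CPM in PS19 and 1251 CPM in PZKO in dentate granule-like nuclei and at 854 CPM in PS19 and 901 CPM in PZKO in CA1-like nuclei, and ranged from 317 to 1095 CPM in PS19 and from 318 to 1251 CPM in PZKO over the excitatory classes. Interneuron-like nuclei had far less, with 64.98 CPM in PS19 and 116 CPM in PZKO in the *Lhx6* class and 111 CPM in PS19 and 162 CPM in PZKO in the *Adarb2* class, and Cajal-Retzius-like nuclei had 26.2 and 30.4 CPM. The inhibitory class led by *Ano2* and *Pld5* did not share this, with 802 and 747 CPM.

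The L-type pores divided in another way. *Cacna1c* (chromosome 6, 118587240 to 119196418), the main L-type pore of brain and smooth muscle, was highest among the named classes in pericyte- and mural-like nuclei, at 2182 CPM in PS19 (95% interval 2018 to 2356) and 2892 CPM in PZKO (95% interval 2744 to 3046). Of the 12 neuron classes it was highest in CA3-like (1152 and 1345 CPM) and dentate granule-like nuclei (1137 and 1261 CPM), against 359 and 384 CPM in CA1-like nuclei. OPC-like nuclei held 485 and 476 CPM, and oligodendrocyte-like nuclei 57.8 and 72.98 CPM. *Cacna1d*, the second neuronal L-type pore, was highest among the named classes in microglia-like (691 and 584 CPM) and ependymal-like nuclei (681 and 651 CPM), ahead of the deep-layer-like neurons (633 and 551 CPM). In ependymal-like and microglia-like nuclei this was 144% and 163%, and 147% and 146%, of the excitatory level. *Cacna1d* was at 8.83 and 8.03 CPM in oligodendrocyte-like nuclei, 1.87% and 2.01% of the excitatory level and thus under the background.

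The low-voltage-activated T-type pores differed in where they were highest. *Cacna1g* was highest in the unnamed cluster led by *Adamts19* and *Synpo2* (167 and 179 CPM), followed in PS19 by the excitatory class led by *Exph5* and *Rskr* (58.1 and 65.1 CPM) and in PZKO by the inhibitory class led by *Ano2* and *Pld5* (41.6 and 66.5 CPM). It was lowest of the 12 neuron classes in CA3-like nuclei, at 5.29 CPM in PS19 and 11.4 CPM in PZKO. *Cacna1h* (chromosome 17, 25374285 to 25433783) was highest in dentate granule-like nuclei, at 92.3 CPM in PS19 (95% interval 87.5 to 97.2) and 109 CPM in PZKO (95% interval 103 to 116), followed among neurons by the excitatory class led by *Shoc1* and *Npsr1* (47.2 and 51.4 CPM), while *Lhx6* interneuron-like nuclei had 3.34 and 5.61 CPM. *Cacna1i* was highest in the *Shoc1* class in PS19 and the *Exph5* class in PZKO (56.1 and 49.4 CPM, and 53.3 and 61.6 CPM), and its lowest value over the excitatory classes was in dentate granule-like nuclei (14.7 and 14.1 CPM), so that *Cacna1h* and *Cacna1i* stood at opposite ends in these cells.

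The α2δ subunits, which include the binding sites of gabapentin-type drugs on the products of *Cacna2d1* and *Cacna2d2*, each had a different set of classes. *Cacna2d1* (chromosome 5, 15934691 to 16374511) ranged from 378 to 1006 CPM in PS19 and from 490.2 to 1015 CPM in PZKO over the excitatory classes and was highest in Cajal-Retzius-like nuclei, at 2362 CPM in PS19 (95% interval 2125 to 2619) and 3167 CPM in PZKO (95% interval 2941 to 3406). In *Lhx6* interneuron-like nuclei it was low, at 11.8 CPM in PS19 (95% interval 8.84 to 15.4) and 15.2 CPM in PZKO (95% interval 12.7 to 18.1), which is 1.53% and 1.91% of the excitatory level, while *Adarb2* interneuron-like nuclei had 756 and 891 CPM. *Cacna2d2* (chromosome 9, 107399612 to 107529343) stood at 182 CPM in PS19 (95% interval 169.6 to 195) and 205 CPM in PZKO (95% interval 195 to 215) in the *Lhx6* class, at 180.2 and 170.1 CPM in the inhibitory class led by *Ano2* and *Pld5* and at 676 and 812 CPM in Cajal-Retzius-like nuclei, but at 0.914 and 1.52 CPM in dentate granule-like and 1.202 and 1.44 CPM in CA3-like nuclei.

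*Cacna2d3* (chromosome 14, 28904943 to 29721864), the longest of the 40 genes at 817 kb, was high in most neurons, up to 1343 CPM in PS19 and 1923 CPM in PZKO in the excitatory class led by *Cpa6* and *Tshz2*. It was at 83.3 CPM in PS19 and 113 CPM in PZKO in deep-layer-like nuclei and at 31.6 CPM in PS19 (95% interval 24.2 to 40.5) and 15.6 CPM in PZKO (95% interval 11.8 to 20.2) in the class led by *Vwc2l* and *Kcnh8*. *Cacna2d4* (chromosome 6, 119236526 to 119352407) was low throughout, with its highest level in oligodendrocyte-like nuclei, at 31.1 CPM in PS19 (95% interval 27.6 to 34.9) and 39.6 CPM in PZKO (95% interval 35.9 to 43.6). In CA1-like nuclei no *Cacna2d4* UMI was counted in either library, which allows up to 0.322 CPM in PS19 and 0.226 CPM in PZKO (3 counts). The astrocyte-like level was 5.93 and 5.14 CPM.

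**Figure D2:**
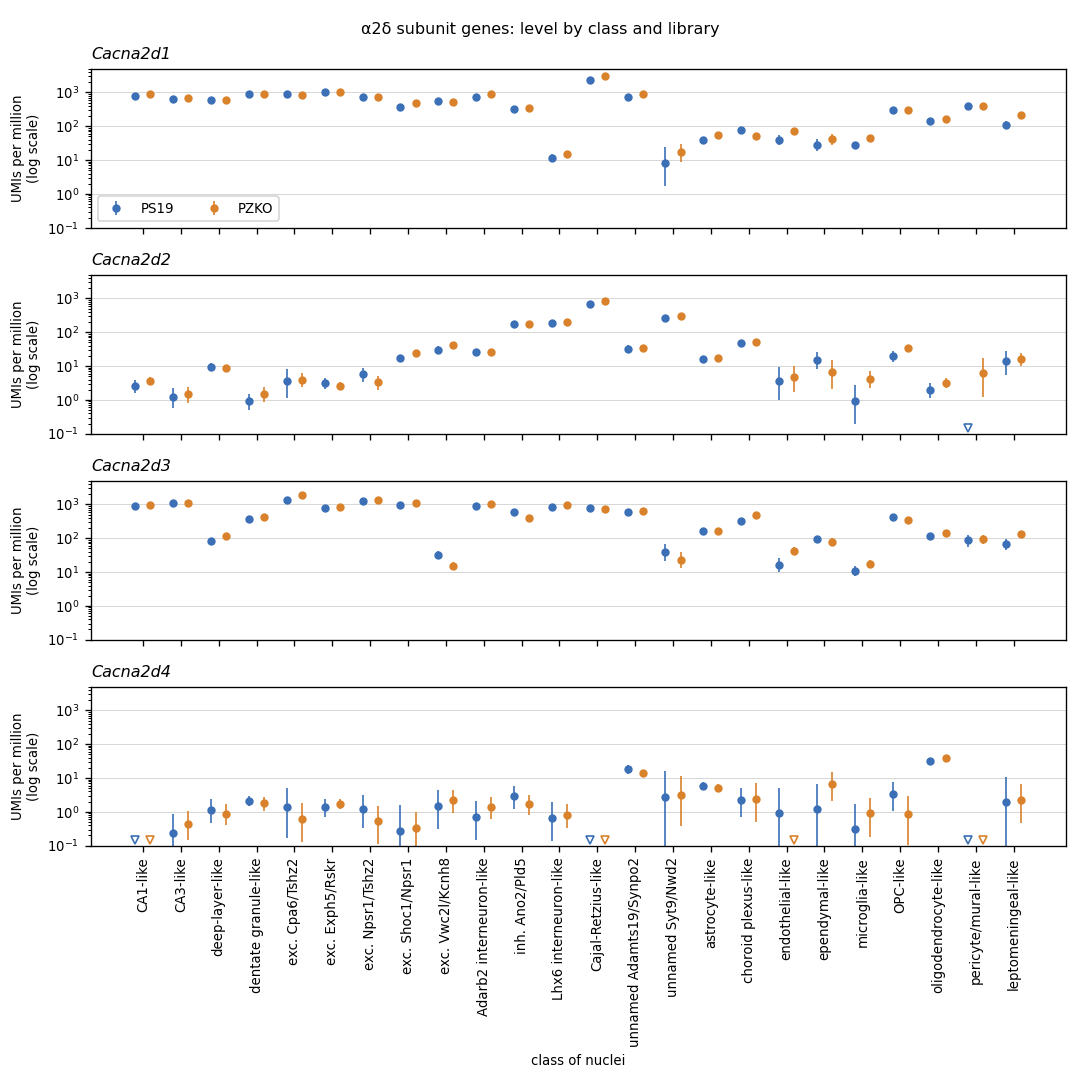
Level of the 4 α2δ genes in each of 24 classes, as CPM on a log axis, with PS19 in blue and PZKO in orange. Bars are exact Poisson 95% intervals of the UMI sums and open triangles mark classes without a UMI. *Cacna2d1* is at 11.8 and 15.2 CPM in *Lhx6* interneuron-like nuclei where *Cacna2d2* stands at 182 and 205 CPM, and *Cacna2d3* is at 31.6 and 15.6 CPM in the *Vwc2l* class.

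Of the cytoplasmic β subunits, *Cacnb2* and *Cacnb4* had the most UMIs. *Cacnb2* (chromosome 2, 14603088 to 14987908) was highest in CA1-like nuclei, at 2179 CPM in PS19 and 2348 CPM in PZKO, then CA3-like (1278 and 1479.98 CPM), with 984 and 1023 CPM in dentate granule-like nuclei, and lower in the *Exph5* class (346 and 418 CPM) and *Lhx6* interneuron-like nuclei (219.9 and 233 CPM). Ependymal-like (909.5 and 920.2 CPM) and pericyte- and mural-like nuclei (914 and 1134 CPM) also held *Cacnb2*. *Cacnb4* was lowest of the 12 neuron classes in CA3-like (211 and 200.3 CPM) and CA1-like nuclei (223 and 257 CPM), with 265 and 279.5 CPM in dentate granule-like nuclei, and reached 923 and 1009 CPM in the *Vwc2l* class.

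Outside neurons *Cacnb4* was high in choroid plexus-like nuclei, at 791 CPM in PS19 (95% interval 756 to 829) and 1057 CPM in PZKO (95% interval 1000.05 to 1116), or 167% and 181% of the excitatory level against a background of 8.14% and 6.89%. Oligodendrocyte-like nuclei held 314 and 360.3 CPM of *Cacnb4*. *Cacnb1*, the β subunit of skeletal muscle that is also made in brain, ranged from 21.9 to 41.7 CPM in PS19 and from 27.7 to 42.5 CPM in PZKO over the excitatory classes, with its highest level in CA1-like nuclei in PS19 (41.7 and 39.8 CPM) and the *Exph5* class in PZKO (26.2 and 42.5 CPM). *Cacnb3* ranged from 13.95 to 29.6 CPM in PS19 and from 14.8 to 27.7 CPM in PZKO there and was highest in the unnamed cluster led by *Syt9* and *Nwd2*, at 169 and 153 CPM.

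The γ subunit genes that encode TARPs, which carry AMPA receptors to the synapse, had their highest levels in different classes. *Cacng2*, which encodes stargazin, was highest in *Lhx6* interneuron-like nuclei, at 198 CPM in PS19 and 183 CPM in PZKO, and lowest of the 12 neuron classes in CA1-like (29.5 and 29.6 CPM) and *Shoc1*-class nuclei (32.1 and 36.6 CPM). *Cacng8* was highest in CA1-like nuclei, at 151 CPM in PS19 and 151 CPM in PZKO, followed by dentate granule-like (115 and 118 CPM) and CA3-like nuclei (110.5 and 112 CPM), and *Cacng3* was lowest among the hippocampal fields in CA3-like nuclei (44.5 and 45.4 CPM), against 269 and 249.9 CPM in the *Cpa6* class and 219 and 288 CPM in the *Exph5* class. In CA1-like nuclei *Cacng8* exceeded *Cacng2* per gene span as well, at 6.06 and 6.04 CPM per kb against 0.230 and 0.231.

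*Cacng4* (chromosome 11, 107732357 to 107794557) was highest in OPC-like nuclei, at 596 CPM in PS19 (95% interval 558 to 637) and 668 CPM in PZKO (95% interval 636 to 702), with 3.12 and 3.44 CPM in oligodendrocyte-like nuclei. *Cacng5*, which lies beside it, was highest of the 12 neuron classes in the *Ano2* and *Pld5* class (65.5 and 42.4 CPM), beside 45.9 and 43.4 CPM in Cajal-Retzius-like nuclei, and *Cacng7* was spread over neurons and glia, from 1.22 and 4.48 CPM in microglia-like to 80.1 and 79.6 CPM in OPC-like nuclei. *Cacng1* and *Cacng6*, which encode muscle-type γ subunits, had 18 and 33 and 57 and 75 UMIs in all nuclei of PS19 and PZKO.

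The sodium channel pores of adult brain, *Scn1a*, *Scn2a* and *Scn8a*, were expressed by all neuron classes but in different proportions. *Scn1a* (chromosome 2, 66270778 to 66440840), the Nav1.1 pore on which fast-spiking interneurons depend, was highest among named classes in *Lhx6* interneuron-like nuclei, at 633 CPM in PS19 (95% interval 610.3 to 657) and 575 CPM in PZKO (95% interval 559 to 591), and lowest of the 12 neuron classes in dentate granule-like nuclei, at 198 CPM in PS19 and 213 CPM in PZKO. *Scn2a* (chromosome 2, 65620771 to 65767447), the Nav1.2 pore of excitatory axons, was lowest of the 12 neuron classes in the *Lhx6* class, at 316 CPM in PS19 and 326 CPM in PZKO, and ranged from 377 to 558 CPM in PS19 and from 385 to 531 CPM in PZKO over the excitatory classes, with 558 and 490.3 CPM in the *Npsr1* and *Tshz2* class and 549.8 and 531 CPM in deep-layer-like nuclei at the top. *Scn8a* (chromosome 15, 100869858 to 101045938), the Nav1.6 pore of the axon initial segment and nodes, ranged from 317 to 398 CPM in PS19 and from 332 to 443 CPM in PZKO over the excitatory classes, with 398 and 426 CPM in CA1-like and 396 and 443 CPM in dentate granule-like nuclei at the top, and was lowest of the 12 neuron classes, at 199 and 213 CPM, in *Adarb2* interneuron-like nuclei.

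Per kb of gene span, which allows levels of different genes to be set side by side, *Scn1a* stood at 3.72 and 3.38 CPM per kb (PS19, then PZKO) in *Lhx6* interneuron-like nuclei against 2.15 and 2.22 for *Scn2a* and 1.78 and 1.86 for *Scn8a*. In dentate granule-like nuclei *Scn1a* was the lowest of the 3, with 3.29 and 3.17 CPM per kb for *Scn2a*, 2.25 and 2.52 for *Scn8a* and 1.17 and 1.25 for *Scn1a*. *Scn3a*, the pore best known from the developing brain, was also well expressed in dentate granule-like nuclei, at 294 and 293 CPM, against 51.6 and 57.4 CPM in *Lhx6* interneuron-like nuclei, and highest in the unnamed *Syt9* cluster, at 407 and 526 CPM. The division by span suits unspliced nuclear RNA but favours short genes, since reads also gather at the transcript end.

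The sodium channel pores known mainly from outside the brain differed between classes. *Scn9a*, the pore of pain-sensing neurons, had 114 and 128 CPM in the inhibitory class led by *Ano2* and *Pld5* and 79.7 and 59.1 CPM in the *Lhx6* class, against 8.15 and 13.5 CPM in CA1-like nuclei and 232 and 127 CPM in the unnamed *Syt9* cluster. *Scn7a*, which encodes the sodium-sensing Nax channel, was highest in ependymal-like nuclei, at 100.3 CPM in PS19 (95% interval 80.1 to 124) and 93.97 CPM in PZKO (95% interval 73.5 to 118).

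*Scn4a*, *Scn10a* and *Scn11a* were near 0, with 10 and 10, 15 and 16 and 9 and 9 UMIs in all kept nuclei of PS19 and PZKO. Among the calcium channel pores the same held for *Cacna1s* of skeletal muscle (20 and 21 UMIs) and *Cacna1f* of the retina (115 and 174 UMIs). *Scn1a*, *Scn2a*, *Scn3a*, *Scn7a* and *Scn9a* lie beside each other on chromosome 2 and are similar in sequence, so reads that fit more than 1 of them may have been lost or shared.

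The sodium channel β subunit genes are short, with 12.3 kb for *Scn2b* and 22.4 kb for *Scn3b*. *Scn3b* was highest in CA1-like (179.9 and 166 CPM) and dentate granule-like nuclei (173 and 171 CPM) and was low in the *Lhx6* class (21.1 and 22.6 CPM). *Scn2b* ranged from 27.6 to 46.9 CPM in PS19 and from 22.03 to 36.7 CPM in PZKO over the excitatory classes, with 46.9 and 31.2 CPM in the *Vwc2l* class, and had 40.2 and 38.5 CPM in pericyte- and mural-like nuclei. *Scn4b* was low, with 17.3 and 12.6 CPM in the *Vwc2l* class and 19.7 and 8.69 CPM in Cajal-Retzius-like nuclei, the latter on 3 and 2 UMIs.

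Between genotypes, 37 of 368 measured pairs of a channel gene and a class differed by the rule given here, 30 of them higher in PZKO and 7 lower. By the same rule, 2.79% of the pairs of all measured genes were higher and 5.79% lower in the neuron classes. Outside neurons these shares were 3.38% and 7.15%. In each of 17 classes with at least 100 nuclei per library and 5 measured channel genes, the log2 ratio of PZKO over PS19 was taken for each gene with at least 100 UMIs over both libraries. A gene is called past the fold rule where its log2 ratio is at least 0.5 from 0 (1.41-fold) and its whole 95% interval lies on that side of 0. The median log2 ratio over the measured channel genes was 0.02 in dentate granule-like nuclei (27 genes), 0.04 in CA1-like (26 genes), 0.06 in CA3-like (28 genes), 0.08 in *Lhx6* interneuron-like (27 genes) and 0.07 in *Adarb2* interneuron-like nuclei (29 genes). Beside these stand the medians over all measured genes in the same classes, which were -0.09, -0.06, -0.02, -0.03 and -0.04.

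**Figure D3:**
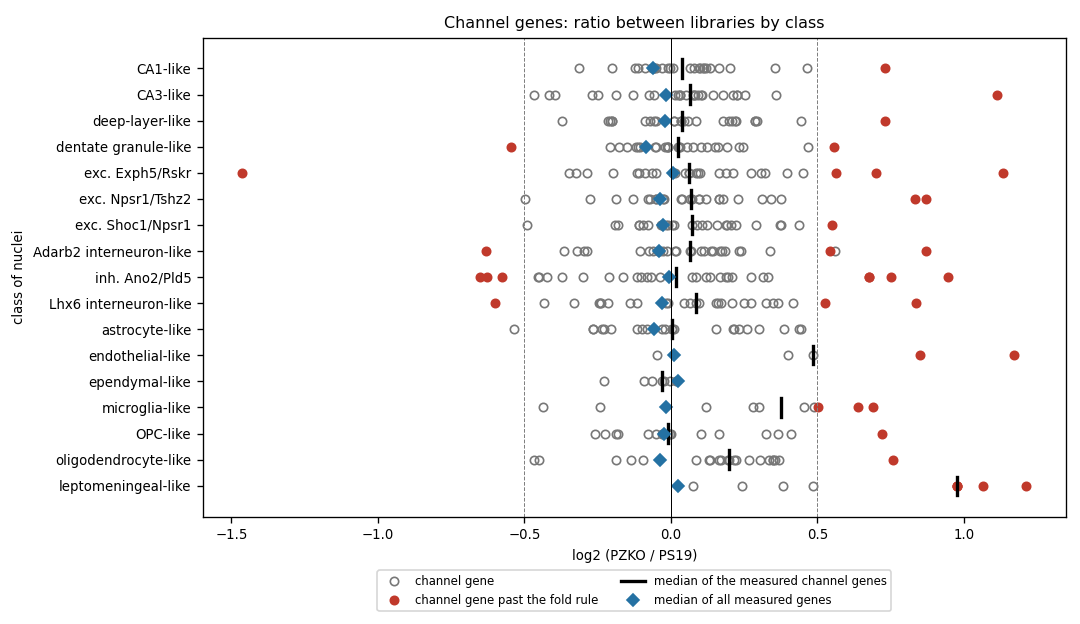
Log2 ratio of PZKO over PS19 of each measured channel gene in 17 classes. Open grey circles are genes within the fold rule, filled red circles genes past it, black bars the median of the channel genes and blue diamonds the median of all measured genes, with dashed lines at a log2 ratio of 0.5 to either side of 0. In the neuron classes the black bars lie between 0.02 and 0.08, and in leptomeningeal-like nuclei the bar lies at 0.98.

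Over the 10 neuron classes 25 of 275 gene and class pairs were past the rule, 18 of them higher and 7 lower in PZKO. Over all measured genes, 2.79% of the pairs in these classes were higher and 5.79% lower. With an ambient profile subtracted, 34 were past it, of which 15 were higher. That profile was the sum over all kept nuclei of the library, since empty droplets were not used. All classes come from the same 2 libraries, so agreement between them is not independent. Of all measured genes 7.82% were past the rule in either direction in dentate granule-like nuclei, 6.31% in CA1-like, 8.72% in CA3-like, 6.61% in deep-layer-like, 6.91% in the *Exph5* class, 7.83% in the *Npsr1* and *Tshz2* class, 7.37% in the *Shoc1* class, 9.27% in *Adarb2* and 8.13% in *Lhx6* interneuron-like nuclei, and 18.4% in the *Ano2* and *Pld5* class. The channel genes past the rule numbered 2 of 27, 1 of 26, 1 of 28, 1 of 26, 4 of 29, 2 of 26, 1 of 27, 3 of 29, 3 of 27 and 7 of 30 in the same order. This is at or under the background in 6 classes and above it, by no more than 2 genes, in the *Exph5*, *Adarb2*, *Lhx6* and *Ano2* classes. Of the 37 pairs past the rule in all 17 classes, 6 stayed past it under every alternative processing run and 31 were lost under at least 1.

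Among the genes past the rule in the hippocampal fields were the T-type pore *Cacna1g* and *Scn9a*. *Cacna1g* had 5.29 CPM in PS19 and 11.4 CPM in PZKO in CA3-like nuclei, a log2 ratio of 1.11 (95% interval 0.61 to 1.64), and 8.94 CPM in PS19 and 13.2 CPM in PZKO in dentate granule-like nuclei, a log2 ratio of 0.56 (95% interval 0.21 to 0.90). In both fields the level was low, resting on 44 and 127 UMIs in the former and 137 and 147 UMIs in the latter. Both calls were lost with an ambient profile subtracted, and the dentate granule-like call also when nuclei were averaged. The subtraction left a ratio for only 25 of the 37 calls. In dentate granule-like nuclei it took away all PZKO UMIs of *Cacna1g* and left some in PS19. It therefore gave no ratio there, and the higher PZKO level was not kept. In the other alternative runs the dentate granule-like ratio was 0.46 or higher. In CA3-like nuclei the *Cacna1g* ratio was 0.72 or higher in every alternative run that gave one. The ambient share of UMIs, estimated from oligodendrocyte and astrocyte markers, was 14.6% and 19.5% in CA3-like and 37.2% and 45.9% in dentate granule-like nuclei. It is the level of these markers in the class relative to all kept nuclei of the library, not a measure from empty droplets. The share is too high where a class makes any of these markers itself. In CA1-like nuclei *Scn9a* had 8.15 CPM in PS19 and 13.5 CPM in PZKO, a log2 ratio of 0.73 (95% interval 0.34 to 1.14), and its ratio was -0.03 when nuclei were averaged instead of summed.

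The channel genes with the most UMIs in these fields differed less. In CA1-like nuclei *Cacnb2* had a log2 ratio of 0.11 (95% interval 0.08 to 0.13), *Cacna2d3* of 0.11 (95% interval 0.07 to 0.15) and *Cacna1e* of 0.08 (95% interval 0.04 to 0.12). In CA3-like nuclei *Cacnb2* had 0.21 (95% interval 0.18 to 0.25), *Cacna1c* 0.22 (95% interval 0.19 to 0.26) and *Cacna1a* -0.27 (95% interval -0.31 to -0.23). In dentate granule-like nuclei *Cacna1c* had 0.15 (95% interval 0.12 to 0.18), *Cacna1e* 0.19 (95% interval 0.16 to 0.23) and *Cacnb2* 0.06 (95% interval 0.02 to 0.09). All these intervals lie within 1.41-fold.

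Across all 10 neuron classes *Cacna1g* ratios ran from 0.16 to 1.11 (median 0.51), and 5 of the 10 were past the rule. Beyond the fields above these were the *Npsr1* and *Tshz2* class, with 20.6 CPM in PS19 and 37.7 CPM in PZKO, the *Adarb2* interneuron-like nuclei, with 30.97 CPM in PS19 and 56.7 CPM in PZKO, and the *Ano2* and *Pld5* class, with 41.6 CPM in PS19 and 66.5 CPM in PZKO. The *Cacna1g* ratio was 0.26 in the *Npsr1* and *Tshz2* class with separate clustering of the libraries. In the *Ano2* and *Pld5* class it was as low as 0.25, and the call was lost with doublets kept and at a resolution of 0.5. In the *Adarb2* class it stayed between 0.62 and 0.95. *Cacna1h* ratios ran from -0.46 to 0.83 over 9 classes, with 3 past the rule: deep-layer-like nuclei (5.79 and 9.598 CPM, log2 ratio 0.73), the *Exph5* class (7.54 and 11.1 CPM, log2 ratio 0.56) and the *Npsr1* and *Tshz2* class (10.6 and 18.9 CPM, log2 ratio 0.83, or -0.54 with separate clustering of the libraries). With an ambient profile subtracted, the *Cacna1h* calls in deep-layer-like nuclei and in the *Npsr1* and *Tshz2* class were lost. In deep-layer-like nuclei the *Cacna1h* ratio was still 0.65 or higher in every alternative run that gave one. *Cacna1i* ran from -0.18 to 0.95, with the *Ano2* and *Pld5* class (21.4 CPM in PS19 and 41.2 CPM in PZKO) and the *Lhx6* class (22.9 CPM in PS19 and 32.98 CPM in PZKO) past the rule. Under the alternatives its ratio was as low as 0.40 in the former and 0.37 in the latter. The difference is not uniform over the T-type family, since in dentate granule-like nuclei *Cacna1i* had -0.05 (95% interval -0.36 to 0.25) and in the *Ano2* and *Pld5* class *Cacna1h* had -0.46 (95% interval -0.93 to 0.03).

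**Figure D4:**
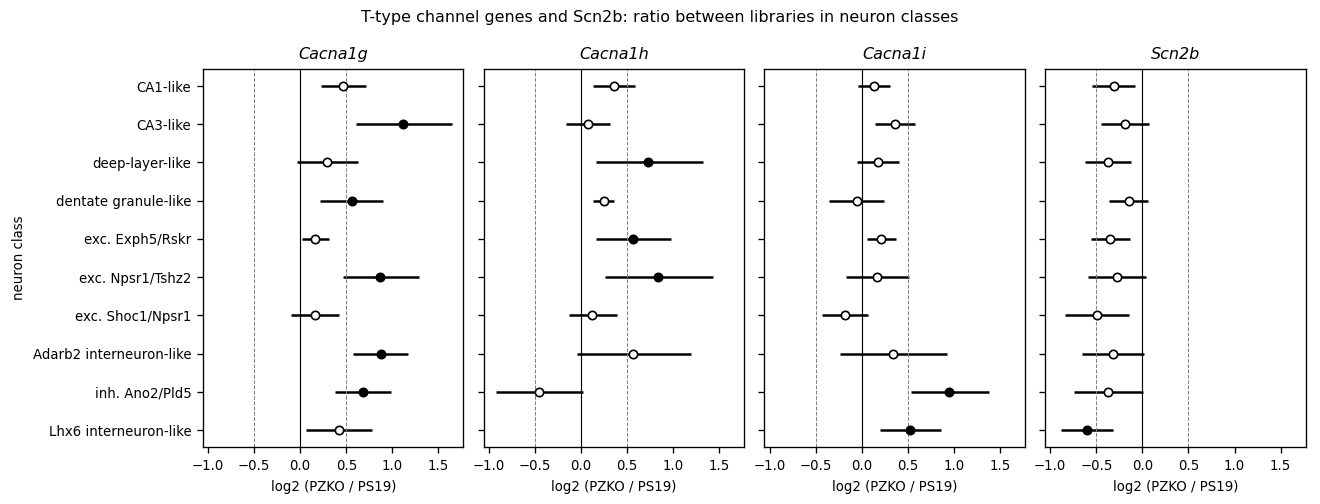
Log2 ratio of PZKO over PS19 (x axis) of the 3 T-type pore genes and of *Scn2b* in 10 neuron classes (y axis), with exact 95% intervals for counting error and dashed lines at 0.5 to either side of 0. Filled circles are past the fold rule. *Cacna1g* runs from 0.16 to 1.11 and *Scn2b* from -0.60 to -0.15.

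In the interneuron-like classes *Cacna1e*, which is low there, was higher in PZKO, but from a level at or under the background. It stood at 8.67% and 15.4% of its excitatory level in the *Lhx6* class, against 16.9% and 16.9% for the excitatory markers, and at 14.8% and 21.5% in the *Adarb2* class, against 18.8% and 23.02%. In *Lhx6* interneuron-like nuclei it had 64.98 CPM in PS19 and 116 CPM in PZKO, a log2 ratio of 0.84 (95% interval 0.65 to 1.03), and in *Adarb2* interneuron-like nuclei 111 CPM in PS19 and 162 CPM in PZKO, a log2 ratio of 0.54 (95% interval 0.38 to 0.70). In the *Lhx6* class its ratio turned to -1.24 with separate clustering of the libraries. *Scn2b* was lower in the *Lhx6* class, with 42.1 CPM in PS19 and 27.7 CPM in PZKO and a log2 ratio of -0.60 (95% interval -0.88 to -0.32). The leading genes of the *Lhx6* class, *Cacna1a* at -0.01 (95% interval -0.06 to 0.04), *Cacna2d3* at 0.21 (95% interval 0.15 to 0.27) and *Scn1a* at -0.14 (95% interval -0.21 to -0.07), were within the rule. So were those of the *Adarb2* class, *Cacna2d3* at 0.19, *Cacna2d1* at 0.24 and *Cacnb2* at 0.23.

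In the excitatory class led by *Exph5* and *Rskr*, *Scn7a* was lower in PZKO, with 17.1 CPM in PS19 and 6.19 CPM in PZKO and a log2 ratio of -1.46 (95% interval -1.81 to -1.11), the widest difference of any measured channel gene. *Cacnb1* was higher there, with 26.2 CPM in PS19 and 42.5 CPM in PZKO and a log2 ratio of 0.70 (95% interval 0.49 to 0.92), as was *Cacng4* on few UMIs (17 and 91 UMIs, log2 ratio 1.13). The leading genes *Cacna2d1* (0.01), *Cacna2d3* (0.06) and *Cacna1a* (0.01) were within the rule. In the *Shoc1* class *Cacna2d2* had 16.7 CPM in PS19 and 24.5 CPM in PZKO, a log2 ratio of 0.55 (95% interval 0.13 to 0.99), and the leading genes *Cacna2d3*, *Cacnb4* and *Cacna1e* had log2 ratios of 0.19, 0.00 and 0.21. Deep-layer-like nuclei had 0.01 for *Cacnb4*, 0.22 for *Cacna1e* and -0.06 for *Cacna1a*, and the *Npsr1* and *Tshz2* class 0.07 for *Cacna2d3*, 0.16 for *Cacnb4* and 0.04 for *Cacna2d1*.

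The *Ano2* and *Pld5* class held 7 of the pairs past the rule, but there 18.4% of all genes were past it. The higher genes besides *Cacna1g* and *Cacna1i* were *Cacng2* (47.8 CPM in PS19 and 80.4 CPM in PZKO) and *Cacng7* (34.02 CPM in PS19 and 54.4 CPM in PZKO). The lower genes were *Scn3b* (91.9 CPM in PS19 and 58.5 CPM in PZKO), *Cacng5* (65.5 CPM in PS19 and 42.4 CPM in PZKO) and *Cacna2d3* (588 CPM in PS19 and 394 CPM in PZKO), with a log2 ratio for *Cacna2d3* of -0.58 (95% interval -0.67 to -0.48). *Cacna2d3* turned to 0.09 when doublets were kept. The leading genes *Cacnb2*, *Cacna1e* and *Cacna1a* had log2 ratios of -0.42, -0.10 and 0.12.

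Gene length moved with these ratios. In dentate granule-like nuclei the median log2 ratio over all measured genes was 0.09 for genes spanning at least 100 kb and -0.19 for genes under 30 kb, in CA3-like nuclei 0.16 and -0.14, and in *Lhx6* interneuron-like nuclei 0.10 and -0.15. The channel genes are long, with a median span of 105 kb against 23.2 kb for genes with 100 UMIs over all nuclei. The short member *Scn2b* (12.3 kb) had ratios from -0.60 to -0.15 over the neuron classes, beside *Cacna1c* (609 kb) from 0.09 to 0.37. *Cacna1d*, at 452 kb, ran from -0.24 to -0.01, and *Cacna1g* is of middling length at 65.8 kb. The part of length or depth in any of these differences was not tested.

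**Figure D5:**
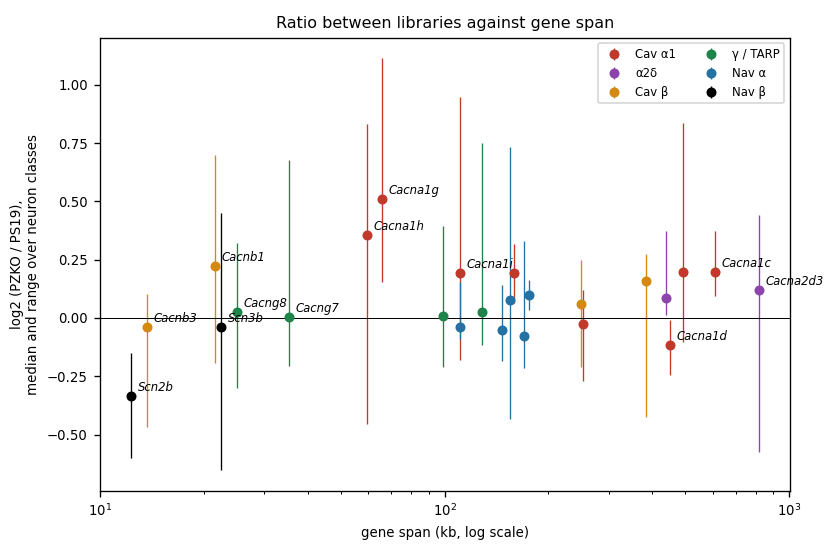
Log2 ratio of PZKO over PS19 (y axis; point, median over neuron classes; bar, lowest to highest class) against gene span in kb (x axis, log scale) for 25 channel genes measured in at least 9 of 10 neuron classes, coloured by subunit family. *Scn2b* (-0.33) lies lowest at the left and *Cacna1g* (0.51) and *Cacna1h* (0.35) highest.

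Outside neurons 12 of 93 gene and class pairs were past the rule, all higher in PZKO, where 3.38% of the pairs of all measured genes were higher and 7.15% lower. None of 23 genes was past it in astrocyte-like nuclei, where 10.7% of all genes were, and none of 7 in ependymal-like nuclei (11.2% of all genes). The leading astrocyte genes *Cacnb2*, *Cacna2d3* and *Cacna1d* had log2 ratios of 0.01, 0.00 and 0.01, and the leading ependymal genes *Cacnb2*, *Cacna1d* and *Cacna1a* of 0.02, -0.06 and -0.02. In microglia-like nuclei 3 of 10 were, against 9.06% of all genes. *Cacnb2* had 300.4 CPM in PS19 and 485 CPM in PZKO, a log2 ratio of 0.69 (95% interval 0.58 to 0.81), and stood at 31.2% and 52.8% of the excitatory level, above the background. *Cacna2d1* (28.8 CPM in PS19 and 44.8 CPM in PZKO) and *Scn2a* (37.3 CPM in PS19 and 52.8 CPM in PZKO) were also past the rule but lay at 3.73% and 5.64% and 8.102% and 11.9% of the excitatory level, under the background of 18.4% and 18.5%. *Cacna1a* and *Cacna1d*, the microglial channel genes with the most UMIs, had log2 ratios of -0.44 (95% interval -0.54 to -0.34) and -0.24 (95% interval -0.33 to -0.16).

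Leptomeningeal-like nuclei had 5 of 9 measured genes past the rule, where 17.0% of all genes were. *Cacna1d* had 123 CPM in PS19 and 258 CPM in PZKO, a log2 ratio of 1.07 (95% interval 0.67 to 1.48), and stood at 26.1% and 64.5% of the excitatory level against a background of 17.7% and 14.6%. *Cacnb4* (57.6 CPM in PS19 and 134 CPM in PZKO), *Cacna1e* (61.6 CPM in PS19 and 121 CPM in PZKO), *Cacna2d1* (109 CPM in PS19 and 215 CPM in PZKO) and *Cacna2d3* (65.6 CPM in PS19 and 129 CPM in PZKO) had 29 and 174 UMIs, 31 and 158 UMIs, 55 and 280 UMIs and 33 and 168 UMIs in PS19 and PZKO, and stood at 12.2% and 22.8%, 8.22% and 16.1%, 14.2% and 27.04% and 9.36% and 15.3% of the excitatory level. The PS19 sums rest on 108 nuclei and the PZKO sums on 194, and the median UMIs per nucleus differed 1.54-fold. *Cacna1c*, the other leading gene of the class, had a log2 ratio of 0.49 (95% interval 0.12 to 0.86). In this class TMM scaling raised all log2 ratios by 0.11 and DESeq2 size factors by 0.12.

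Endothelial-like nuclei had 2 of 5 past the rule against 7.75% of all genes, *Scn2a* (34.3 CPM in PS19 and 77.2 CPM in PZKO) and *Cacna2d1* (39.8 CPM in PS19 and 71.7 CPM in PZKO), at 7.44% and 17.4% and 5.17% and 9.02% of the excitatory level, under the background of 19.4% and 21.7%. Their other leading genes, *Cacna1a* and *Cacna1c*, had log2 ratios of 0.48 and -0.05. Oligodendrocyte-like nuclei had 1 of 22 against 9.37% of all genes, *Cacna1e*, with 13.1 CPM in PS19 and 22.2 CPM in PZKO and 1.75% and 2.95% of the excitatory level, also under the background. The leading genes *Cacnb4*, *Cacna2d1* and *Cacna2d3* had log2 ratios of 0.20, 0.22 and 0.30. OPC-like nuclei had 1 of 17 against 12.1%, *Cacna2d2*, with 20.2 CPM in PS19 and 33.3 CPM in PZKO and a log2 ratio of 0.72 (95% interval 0.10 to 1.38), at 426% and 469.99% of the excitatory level. The leading OPC genes *Cacng4*, *Cacna1c* and *Cacna2d3* had log2 ratios of 0.16 (95% interval 0.04 to 0.28), -0.03 (95% interval -0.16 to 0.11) and -0.22 (95% interval -0.37 to -0.07).

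Genes that act with these channels were read from 4 lists. In each of the 7 non-neuronal classes compared, 5 to 10 of 11 sodium channel anchors and modulators and 4 to 9 of 17 calcium channel partners were measured. So were up to 4 genes of the sodium leak channel complex and 7 to 12 of 16 genes of calcium release and clearance. Outside neurons 25 pairs of a listed gene and a class were higher past the rule and 6 lower. Over all measured genes, 3.38% of the pairs in these classes were higher and 7.15% lower. In 16 of the 25 higher pairs the gene stood at or under the excitatory marker share in both libraries and is read as background. The marker share was 11.7% and 11.5% in astrocyte-like and 9.76% and 11.2% in ependymal-like nuclei, beside the shares given above for the other classes.

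Of the list of sodium channel anchors and modulators, such as *Ank3*, which tethers Nav channels at the axon initial segment, 10 or 11 of 11 genes were measured in each of 10 neuron classes, and 1 pair was past the rule in neurons: *Fgf13*, which acts on Nav inactivation, in the *Ano2* and *Pld5* class (115 CPM in PS19 and 211 CPM in PZKO, log2 ratio 0.87, 95% interval 0.69 to 1.05). Over all measured genes, 2.79% of the pairs in the neuron classes were higher and 5.79% lower. In the *Ano2* and *Pld5* class 18.4% of all genes were past the rule. In OPC-like nuclei *Nfasc*, which encodes the node protein neurofascin, was higher (214 CPM in PS19 and 607 CPM in PZKO, log2 ratio 1.504, 95% interval 1.33 to 1.68), at 113% and 267% of its excitatory level. There the summed oligodendrocyte markers stood at 2.9998% of their oligodendrocyte-like level in PS19 and 8.05% in PZKO, whose part in the difference was not tested. *Nedd4l* was also higher in OPC-like nuclei (log2 ratio 0.55, at 17.4% and 23.9% of its excitatory level), *Fgf14*, a modulator of Nav channels, in astrocyte-like (0.53, at 24.1% and 32.8%) and *Ank2* in ependymal-like nuclei (0.59, at 15.1% and 20.5%), all above the background. The higher values under it were those of *Fgf14* in endothelial-like (0.89, at 1.503% and 2.62%), ependymal-like (1.03, at 5.58% and 10.7%) and oligodendrocyte-like nuclei (0.57, at 0.596% and 0.835%), and of *Ank2* (0.60, at 6.27% and 8.52%) and *Ank3* (0.96, at 3.92% and 7.64%) in endothelial-like nuclei. In leptomeningeal-like nuclei *Ank3* (-0.50, at 12.2% and 8.58%) and *Fgf12* (-1.27, at 14.3% and 4.65%) were lower, also from levels under the background.

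Of the calcium channel partners and inhibitors, 11 or 12 of 17 genes were measured in each neuron class. *Calm2* and *Calm3* encode calmodulin, which binds the Cav pore and drives its calcium-dependent inactivation. *Calm2* was lower in the *Ano2* and *Pld5* class (-0.76), OPC-like (-0.51) and leptomeningeal-like nuclei (-0.60), and *Calm3* in CA3-like (-0.77), dentate granule-like (-0.54) and deep-layer-like nuclei (-0.52). Both genes are short, and genes under 30 kb had median log2 ratios from -0.20 to -0.11 in these classes. The part of gene length in these *Calm2* and *Calm3* ratios was not tested.

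The scaffolds *Rims1*, *Rims2* and *Rimbp2* hold Cav channels at release sites. *Rims1* and *Rims2* were within the rule in every neuron class compared. Their values past it, in microglia-like nuclei for *Rims1* (0.55) and oligodendrocyte-like nuclei for *Rims2* (0.68), rest on 1.31% and 1.86% and 7.497% and 10.1% of the excitatory level, under the background. *Rimbp2* was higher in *Adarb2* interneuron-like nuclei (201 CPM in PS19 and 301 CPM in PZKO, log2 ratio 0.58, 95% interval 0.46 to 0.70). *Stac* was higher in dentate granule-like nuclei (3.65 CPM in PS19 and 6.71 CPM in PZKO, log2 ratio 0.88). This level was 14.9% and 23.8% of its excitatory level, beside estimated ambient shares of UMIs of 37.2% and 45.9% in that class. *Stac* was lower in the *Ano2* and *Pld5* class (-0.60), *Stac2* was lower in the *Adarb2* (-0.51) and the *Ano2* and *Pld5* classes (-0.61), and *Stac3* was higher in the *Exph5* class (0.91). *Cabp1*, a calmodulin relative, was higher in the *Ano2* and *Pld5* class (0.63).

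None of the 4 genes of the sodium leak channel complex in the matrices (*Nalcn*, *Unc79*, *Unc80* and *Fam155a*) was past the rule in any neuron class. Over all measured genes, 2.79% of the pairs in these classes were higher and 5.79% lower. In microglia-like nuclei *Unc80* (0.72) and *Fam155a* (0.53) were past it at 3.74% and 5.77% and 0.672% and 0.907% of the excitatory level, under the background, as was the lower *Fam155a* of oligodendrocyte-like nuclei (-0.52, at 1.66% and 1.08%). In leptomeningeal-like nuclei *Fam155a* was lower (862 CPM in PS19 and 364 CPM in PZKO, log2 ratio -1.24, 95% interval -1.44 to -1.05), at 35.1% and 13.8% of the excitatory level, above the background in PS19 and under it in PZKO.

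Of the genes of calcium release and clearance, 11 to 13 of 16 were measured in each neuron class. *Atp2b4*, a plasma membrane calcium pump, was higher in CA1-like (4.83 CPM in PS19 and 11.1 CPM in PZKO, log2 ratio 1.195, 95% interval 0.70 to 1.71) and CA3-like nuclei (6.73 CPM in PS19 and 14.7 CPM in PZKO, log2 ratio 1.13, 95% interval 0.68 to 1.59), the *Exph5* class (0.52), the *Lhx6* class (0.94, at 13.5% and 19.7% of its excitatory level) and oligodendrocyte-like nuclei (0.59, at 18.3% and 20.97%). The CA1-like *Atp2b4* level was 8.64% and 15.05% of its excitatory level, beside estimated ambient shares of UMIs of 7.79% and 8.23%. The CA3-like level was 12.05% and 20.01%, beside ambient shares of 14.6% and 19.5%. The part of ambient RNA in these *Atp2b4* differences was not tested. *Ryr3*, a calcium release channel, was lower in the *Ano2* and *Pld5* class (1632 CPM in PS19 and 1048 CPM in PZKO, log2 ratio -0.64, 95% interval -0.69 to -0.58). In the *Lhx6* class it was higher (18.03 CPM in PS19 and 50.1 CPM in PZKO, log2 ratio 1.47, 95% interval 1.13 to 1.83), but at 2.53% and 6.67% of its excitatory level, under the background, and in the *Adarb2* class (0.68) it stood at 16.6% and 25.3%. The sodium-calcium exchanger gene *Slc8a1* was higher in dentate granule-like nuclei (0.53, at 9.77% and 11.8% of its excitatory level). Its relative *Slc8a3* was higher in CA3-like nuclei (12.4 CPM in PS19 and 28.2 CPM in PZKO, log2 ratio 1.19, 95% interval 0.86 to 1.52, at 18.9% and 33.0%), the *Ano2* and *Pld5* class (0.52) and oligodendrocyte-like nuclei (0.55, at 221% and 249% of its excitatory level). The *Ano2* and *Pld5* class also had *Itpr2* higher (0.74) and *Ryr1* (-1.41), *Atp2a2* (-0.68) and *Atp2b1* (-0.57) lower.

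The other higher values of this list outside neurons were above the background in 1 library at most. *Slc8a1* in astrocyte-like (0.76, at 8.49% and 11.997%) and ependymal-like nuclei (1.302, at 6.76% and 13.9%) and *Ryr2* in OPC-like nuclei (0.58, at 4.88% and 7.53%) passed it in PZKO. Under it in both libraries were *Slc8a1* in endothelial-like (7.17% and 9.599%) and leptomeningeal-like nuclei (5.79% and 9.48%), *Ryr2* in microglia-like (1.76% and 2.75%), oligodendrocyte-like (1.69% and 2.97%) and leptomeningeal-like nuclei (2.29% and 6.302%), and *Ryr3* in astrocyte-like (0.538% and 0.853%) and oligodendrocyte-like nuclei (0.681% and 1.31%).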

How the data were processed

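Per the labels, hippocampal nuclei of male mice aged 9 months were sequenced with the 10x Genomics 3′ kit, as 1 pooled library per genotype (5 mice, per the study's methods, which also describe individual animals as processed separately). The authors deposited raw UMI counts per gene and nucleus, made with Cell Ranger (7.0.1 per the submitters' processing notes, 8.0.1 per the file headers) on mm10. The ambient RNA correction and doublet removal of the study's own methods are not in these counts.

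Nuclei with at least 600 UMIs and 300 genes and at most 5% mitochondrial UMIs were used, and the nuclei with the highest doublet scores of scrublet were removed at 0.8% per 1000 nuclei. Clustering used scanpy 1.11.5 (2000 variable genes without the channel genes, 30 principal components, 20 neighbours, Leiden resolution 1, no integration). Clusters were named from marker lists, with score thresholds set after the clusters were seen, and 4.58% of PS19 and 4.50% of PZKO nuclei lay outside the 24 classes. UMIs were summed per class and library and scaled to CPM with exact Poisson 95% intervals. Ratios have exact conditional Clopper-Pearson intervals. Both cover counting error only, and with 1 library per genotype no test was made, so genotype, library and depth cannot be told apart. A floor of 3 counts stands for 0. The fold rule was tried on simulated counts with counting error only. These held no variation between libraries, mice or clusterings, so the trial does not bear on those.

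The channel genes named for a class are those past the fold rule and the 3 with the most UMIs. Measured genes are given with their highest class, and partner genes are named where past the rule. The members, lists and classes were chosen with earlier results of these data known. Some genes of the rule and the lists are not reported here, and counts, sums and medians include them. Gene positions and spans come from an mm10 annotation. Alternatives were edgeR 4.0.16 TMM and DESeq2 1.42.0 scaling, UMI minimums of 20 and 1, other filters, no doublet removal, ambient subtraction, other clusterings and other weights.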

Additional observations from a re-analysis of the deposited data

How the results depend on the processing

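Of 14 classes with at least 10 measured channel genes, the median log2 ratio moved beyond the medians of its genes' interval bounds in 1, the *Lhx6* interneuron-like class, to -0.10 from 0.08 with separate clustering of the libraries. The lowest alternative median was also under 0 in CA1-like (-0.0018), dentate granule-like (-0.018) and *Adarb2* interneuron-like nuclei (-0.0042). The same held for the *Npsr1* and *Tshz2* (-0.016) and the *Ano2* and *Pld5* class (-0.11). In the other neuron classes compared it stayed above 0. Over the neuron classes 25 pairs were past the rule, and 25 to 34 under the alternatives (34 with the ambient profile subtracted, and 26 with DESeq2 size factors, of which 21 were higher). Over the non-neuronal classes 12 were, and 9 to 22 under the alternatives: 9 with the ambient profile subtracted, 10 with the stricter filter, 18 under TMM or DESeq2 scaling, 19 with a minimum of 20 UMIs or with nuclei averaged, 21 with no minimum and 22 with doublets kept. The number of genes past the rule, from the lowest to the highest alternative, was 0 to 3 in CA1-like, 1 to 4 in CA3-like, 0 to 2 in deep-layer-like and 1 to 6 in dentate granule-like nuclei (6 with the ambient profile subtracted). It was 3 to 5 in the *Exph5*, 2 to 4 in the *Npsr1* and *Tshz2*, 1 to 3 in the *Shoc1* and 2 to 10 in the *Ano2* and *Pld5* class (4 with doublets kept). In *Adarb2* interneuron-like nuclei it was 1 to 7 (7 with each library clustered on its own, 6 with doublets kept, 5 with channel genes among the variable genes), and in the *Lhx6* class 1 to 11 (11 with each library clustered on its own, 5 with doublets kept).

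Outside neurons it was 0 to 2 in astrocyte-like (2 under TMM or DESeq2 scaling), 0 to 8 in endothelial-like (8 with doublets kept, 5 with a minimum of 20 UMIs, 0 with the stricter filter or ambient subtraction), 0 to 2 in ependymal-like, 1 to 7 in microglia-like (7 with no minimum, 5 with a minimum of 20 UMIs, 1 with the stricter filter), 1 to 2 in OPC-like, 1 to 7 in oligodendrocyte-like (7 with clusters weighted equally, 2 with nuclei averaged) and 3 to 7 in leptomeningeal-like nuclei (3 with the ambient profile subtracted). Among the pairs past the rule, the only ones examined for this, the sign of 4 ratios turned in a run that gave a ratio. These were *Scn9a* in CA1-like nuclei (-0.0272, nuclei averaged) and *Cacna2d3* in the *Ano2* and *Pld5* class (0.0931, doublets kept). With each library clustered on its own they were *Cacna1h* in the *Npsr1* and *Tshz2* class (-0.54) and *Cacna1e* in the *Lhx6* class (-1.24). The cause was not tested. Runs without a ratio are not counted, such as ambient subtraction for *Cacna1g* in dentate granule-like nuclei, which left no PZKO UMIs. The class with the highest level stayed the same for 23 to 33 of 33 genes in PS19 and 23 to 31 in PZKO. The calls kept under every alternative run were *Cacnb1* and *Scn7a* in the *Exph5* class, *Cacna1g* in the *Adarb2* class, *Cacnb2* in microglia-like nuclei, and *Cacna1d* and *Cacna2d1* in leptomeningeal-like nuclei. A resolution of 0.5 and clustering each library on its own gave no value for some classes, and equal cluster weights apply only to classes of several clusters. Depth limits the low genes: a gene with under 100 UMIs in a class was not compared. No paired analysis was possible because each genotype has 1 library and no test was made.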

Other observations

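The 2 unnamed clusters had channel profiles of their own. The cluster led by *Syt9* and *Nwd2* (27 and 26 nuclei in PS19 and PZKO) was the highest of all classes in both libraries for *Cacna1e* (1672 and 1934 CPM), *Cacnb3* (169 and 153 CPM) and *Scn3a* (407 and 526 CPM), and held *Scn9a* at 232 and 127 CPM and *Cacna2d2* at 259.9 and 300.1 CPM. Its *Cacna1a* was at 22.6 and 13.9 CPM and its *Cacna1b* at 5.65 and 1.55 CPM, lower than in any of the 12 neuron classes, and its *Cacna2d1* was at 8.47 and 17.02 CPM. The excitatory marker list stood there at 15.1% and 14.95% of the excitatory level.

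The cluster led by *Adamts19* and *Synpo2* (57 and 77 nuclei) was the highest of all classes in both libraries for *Cacna1c*, at 2705 CPM in PS19 (95% interval 2637 to 2775) and 2914 CPM in PZKO (95% interval 2865 to 2964), and for *Cacna1g*, at 167 CPM in PS19 (95% interval 151 to 185) and 179 CPM in PZKO (95% interval 167 to 191). It held *Scn1a* at 573 and 577 CPM and *Cacnb2* at 918 and 1024 CPM, while *Cacna1e* was at 63.97 and 83.4 CPM, *Cacna1i* at 1.36 and 3.45 CPM and *Cacna1h* at 0.454 and 0.647 CPM. Both clusters were too small for the comparison of genotypes.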
